A study of Homo sapiens with 2 samples.

Results

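The genes described here carry out mitosis: they start it, condense the chromosomes, build the spindle and kinetochores, and end it with anaphase and cytokinesis. The 52 genes were chosen by name for these roles, and each symbol matched 1 of the 20981 genes listed in the count and FPKM tables, and the rule used no measured value. The RNA came from a human cell line, labelled as PANC-1 and established from a carcinoma of the pancreatic duct, that was transfected with a short hairpin RNA against WBSCR22 (shWBSCR22) or with a control hairpin (shCtrl). BUD23 is the current symbol of WBSCR22, an enzyme that methylates the ribosomal RNA of the small subunit. Each group held 1 library; the sources used here do not give the time after transfection, the promoter of the hairpins or whether the cells were clones or pools. No difference given here therefore has a replicate check, no p-value was computed, and the values set 1 library against another rather than 1 condition against another.

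Entry into mitosis is driven by the kinase CDK1 bound to cyclins A and B, with PLK1 and the Aurora kinases acting beside it. The spindle checkpoint holds back the anaphase promoting complex, a ubiquitin ligase activated by CDC20, until every kinetochore is attached to microtubules. The ligase then marks cyclin B and securin for destruction, which frees separase to part the sister chromatids. In growing cells most of these genes are transcribed late in the cell cycle under the factors B-MYB and FOXM1, and they are widely read as markers of proliferation in tumours, pancreatic carcinoma included.

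The libraries held 15248099 counts in shWBSCR22 and 16121638 in shCtrl. BUD23, the targeted gene, had 1892 counts in shWBSCR22 and 3487 in shCtrl (15.6 and 27.1 FPKM), a log2 ratio of -0.72 in the direction of the label. The most frequent low count, after averaging over 3 neighbouring counts, was 15 reads in shWBSCR22 and 8 in shCtrl. These are taken here as the size of a clump of reads. Whether reads came in such clumps was not tested. Ratios are therefore given with 2 intervals. The 95% counting interval is the exact conditional binomial interval of the ratio, and the wider interval applies the same formula after division of the counts by 15 and 8. Both cover the error of drawing reads only. CDKN2A, a gene that the PANC-1 line is known to have lost by deletion, had 6346 counts in shWBSCR22 and 12740 in shCtrl, so that the libraries go against their label at this gene. Among ductal markers KRT8, KRT18, KRT7 and MUC1 had between 4734 and 77459 counts in each library, whereas KRT19 had 0 in both and EPCAM and CDH1 had at most 15. The summed markers of leukocytes had 4.98 CPM (the count scaled to a fixed library total) in shWBSCR22 and 59.7 in shCtrl, with 21 and 692 counts from MPO, and those of fibroblasts 129 and 58.6, mostly from COL1A1. Of acinar, endocrine and endothelial markers only 2 of 7, 1 of 6 and 2 of 5 were among the genes listed. Those found summed to at most 6.03 CPM for each type in either library, and the others were not measured. The endocrine sum was PAX6 alone, with 92 counts in shWBSCR22 and 6 in shCtrl. The part of these differences in the results below was not tested.

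Mitotic genes as a group stood at nearly the same level in both libraries. Together the 52 genes took 0.494% of the counts in shWBSCR22 and 0.475% in shCtrl. In bulk RNA fewer mitotic cells and less RNA per cell cannot be told apart. The median level was 4.21 FPKM in shWBSCR22 and 3.71 in shCtrl, and the range ran from 0 to 475 FPKM in shWBSCR22 and from 0.0658 to 411 in shCtrl. A few genes carried most of the signal: the 3 most abundant, MYBL2, UBE2S and CDC20, made up 52.1% of the summed FPKM in shWBSCR22 and 52.4% in shCtrl. At the other end 14 genes stayed under 2 FPKM in both libraries. The order of the 52 levels was much the same in both libraries, with a Spearman correlation of 0.94 across the genes, against 0.91 across all 12980 genes compared, which describes these libraries and carries no test.

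**Figure D1:**
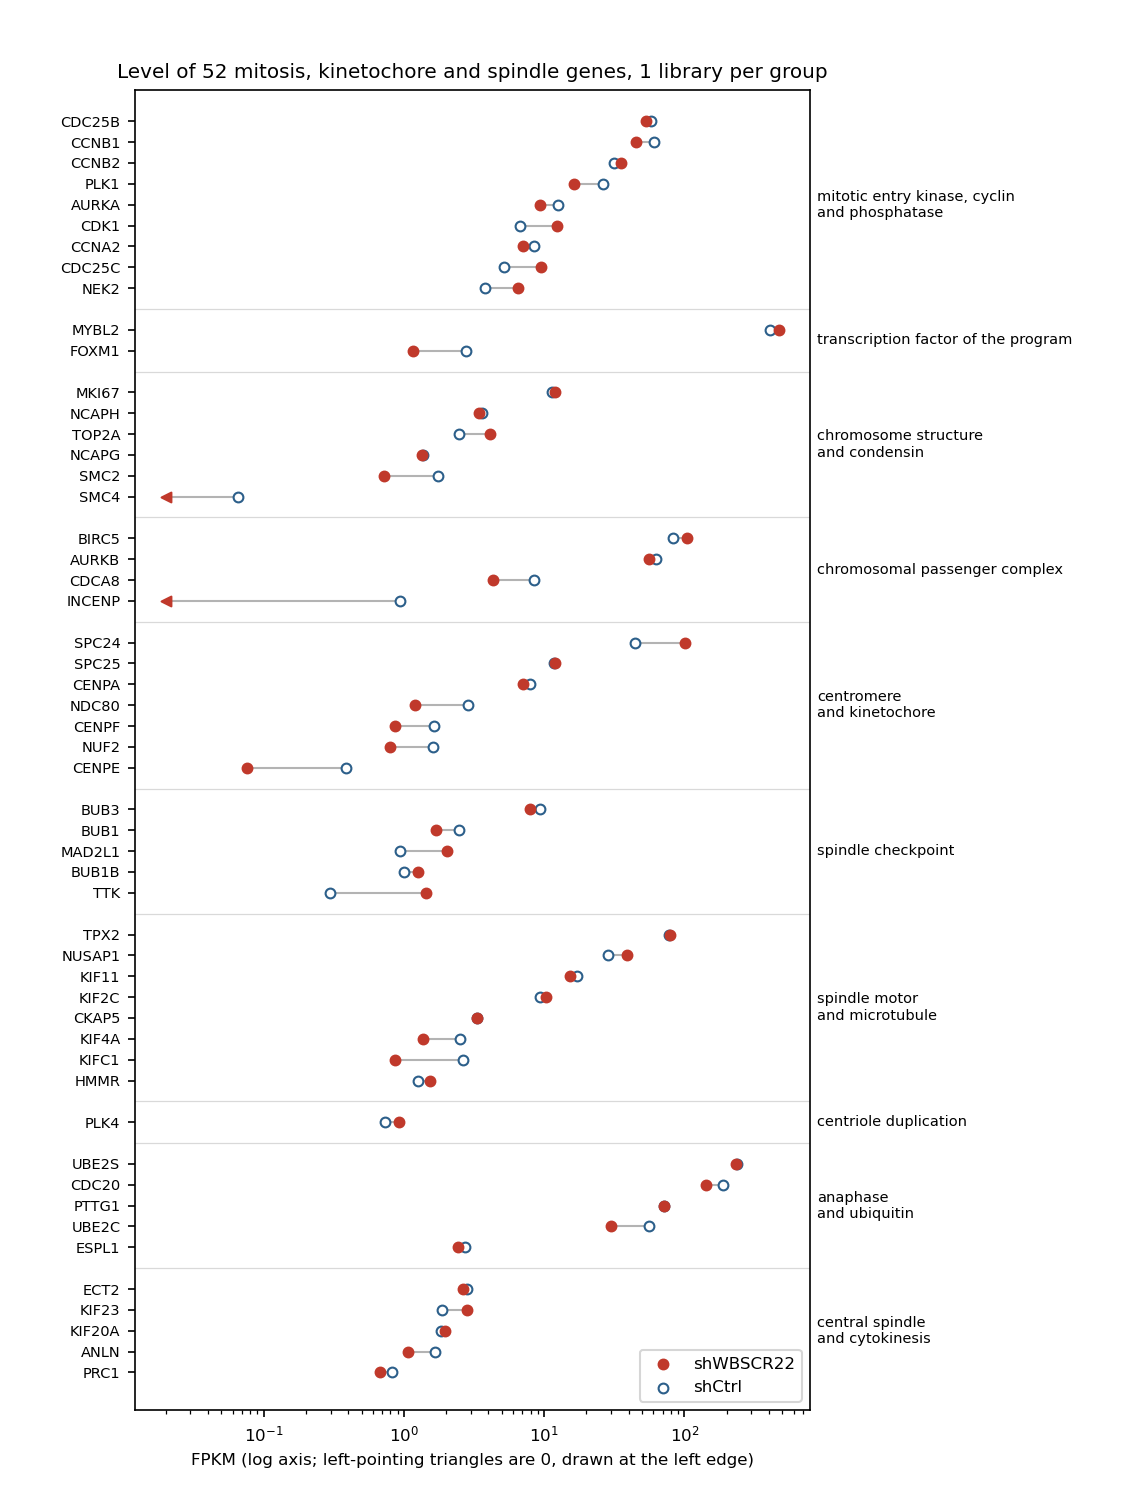
Level in FPKM (log axis) of each of the 52 genes in the shWBSCR22 library (filled) and the shCtrl library (open), grouped by role. MYBL2, UBE2S and CDC20 lie above 100 FPKM in both libraries, and SMC4 and INCENP are at 0 in shWBSCR22.

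Of the 52 genes 51 had a mean of at least 1 CPM and were compared; SMC4 did not. The log2 ratio of shWBSCR22 over shCtrl, on counts scaled by TMM with 0.5 counts added, had a median of 0.0014 over these 51 genes, against -0.016 over all genes compared. Its middle range, from the lower to the upper quartile, was -0.49 to 0.34, against -0.51 to 0.50 over all genes. A gene is called higher or lower where this ratio is at least 1 in size and its counting interval excludes 0. SPC24, MAD2L1 and TTK were called higher, and FOXM1, SMC2, INCENP, CENPE, NDC80 and KIFC1 lower, with 42 in neither class. The 9 called genes are 17.6% of those compared, beside 24.1% of all genes, of which 12.2% were higher and 11.9% lower. With the wider interval 2 were called higher, SPC24 and TTK, and 0 lower, which is 3.92%, beside 7.17% of all genes, of which 4.19% were higher and 2.98% lower. These shares lie near or below the background, so the number of calls is no result about mitotic genes. INCENP and CENPE had under 1 CPM in shWBSCR22 and passed the filter through shCtrl, where they are higher.

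**Figure D2:**
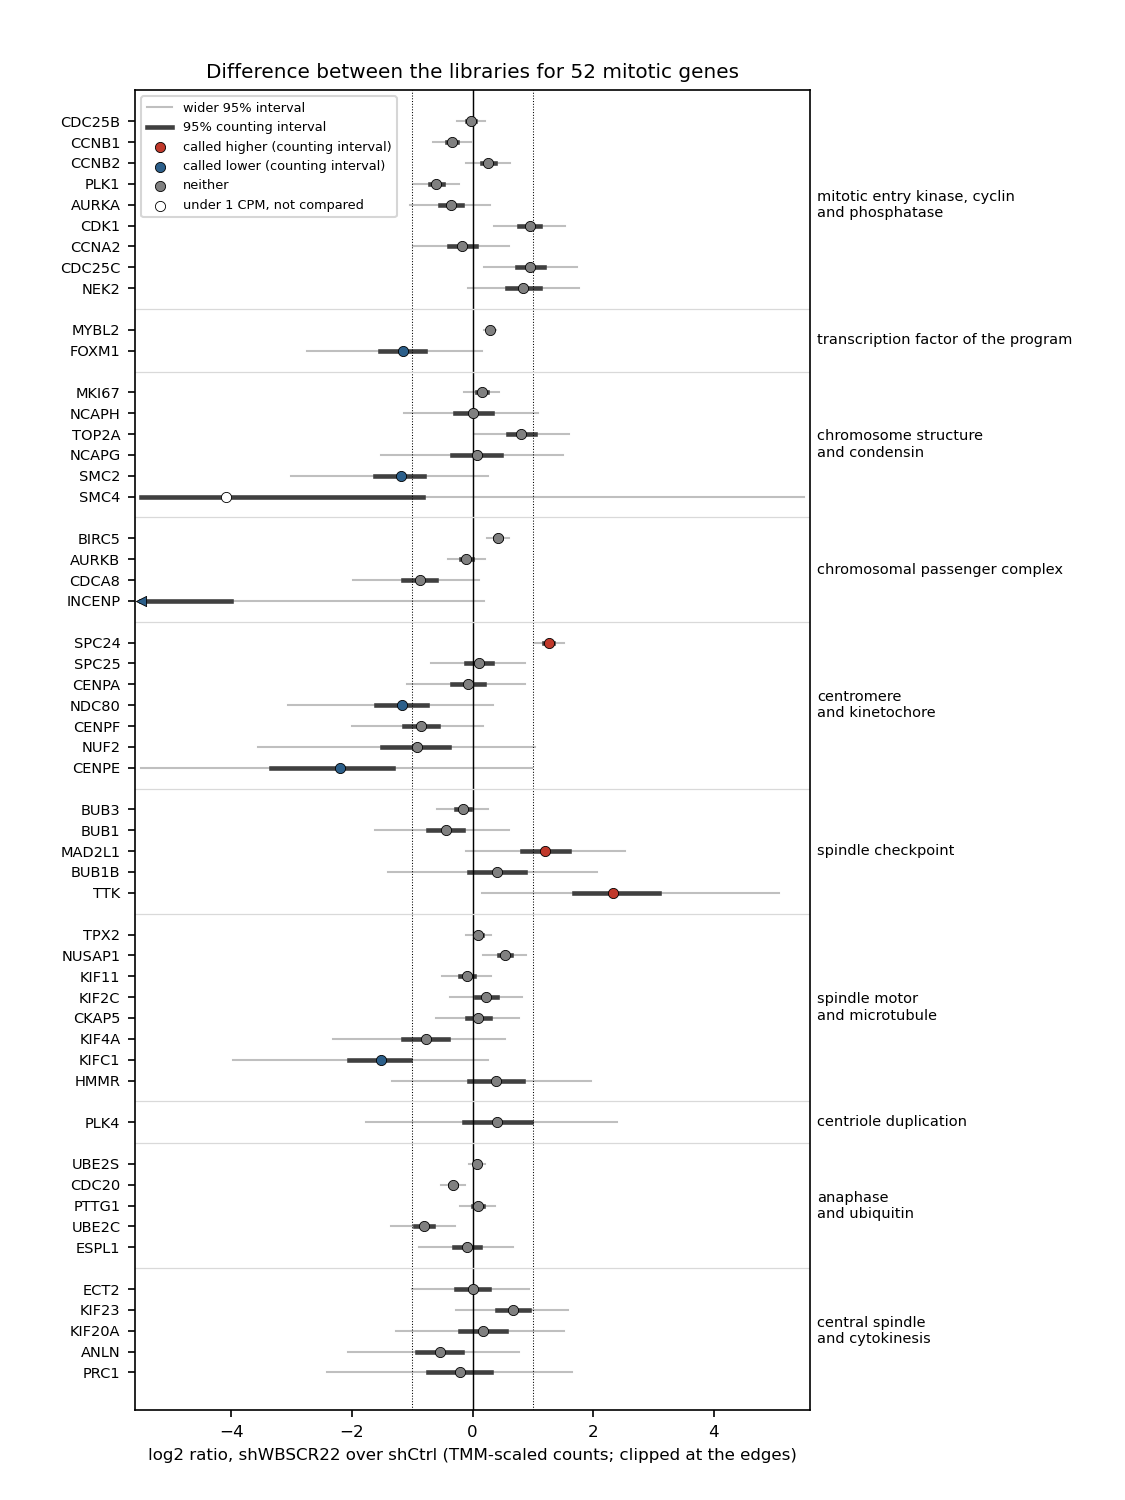
Log2 ratio of shWBSCR22 over shCtrl for each of the 52 genes, with the 95% counting interval (dark) and the wider interval (pale), clipped at the edges; dotted lines mark the 2-fold size rule. Only SPC24 and TTK have a ratio past the right dotted line and a wider interval above 0, and no gene past the left line has a wider interval below 0.

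Setting size aside, the wider interval lay above 0 for 8 genes, CDK1, CDC25C, MYBL2, TOP2A, BIRC5, SPC24, TTK and NUSAP1, and below 0 for 4, CCNB1, PLK1, CDC20 and UBE2C. That is 15.7% and 7.84% of the genes compared, beside 10.8% and 8.2% of all genes. TOP2A is at the edge: its lower bound was 0.02, and total-count scaling lowered its ratio from 0.81 to 0.73, which takes that bound below 0. Among the 20 mitotic genes of at least 30 CPM, 5 lay above and 4 below, or 25.0% and 20.0%, beside 24.4% and 17.9% of all genes at that level. Among well-measured genes these shares lie near the background.

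None of the 9 genes that start mitosis was called with either interval, beside 24.1% and 7.17% of all genes. At any size the wider interval lay to one side of 0 for 4 of them, above it for CDK1 and CDC25C and below it for CCNB1 and PLK1. It lay above 0 for 10.8% and below 0 for 8.2% of all genes. CDK1 (chromosome 10, 60778331 to 60794852, plus strand, GRCh38), the kinase that triggers mitotic entry, had 737 counts in shWBSCR22 and 428 in shCtrl, or 12.2 and 6.73 FPKM. Its log2 ratio was 0.95, just short of the size rule, with a wider interval of 0.36 to 1.54. CDC25C, a phosphatase that removes the inhibitory phosphates of CDK1, had 440 and 254 counts in shWBSCR22 and shCtrl (9.43 and 5.15 FPKM), a ratio of 0.96 (0.18 to 1.73). Its exons share 293 bases with FAM53C on the other strand, which had 8 counts in shWBSCR22 and 76 in shCtrl; the part of shared reads in the ratio was not tested. NEK2, a centrosomal kinase that splits the centrosomes, lay in the same direction, with 306 counts in shWBSCR22 and 191 in shCtrl, but its wider interval of -0.08 to 1.76 held 0.

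PLK1 (chromosome 16, 23677656 to 23690367, plus strand), which acts from entry to cytokinesis, had 1185 counts in shWBSCR22 and 2016 in shCtrl, or 16.3 and 26.2 FPKM. This was the lowest ratio of the entry genes, -0.60 (-0.98 to -0.23). CCNB1, the cyclin B1 partner of CDK1, had 1783 counts in shWBSCR22 and 2529 in shCtrl, 45.5 and 61.1 FPKM (-0.34, -0.65 to -0.03). The per-length level of cyclin B1 message was thus 3.72 times that of CDK1 in shWBSCR22 and 9.08 times in shCtrl. AURKA, the spindle-pole Aurora kinase, had 419 counts in shWBSCR22 and 599 in shCtrl, 9.35 and 12.7 FPKM, and its wider interval of -1.03 to 0.29 held 0. CCNB2, CCNA2 and CDC25B, a second B-type cyclin, cyclin A and the phosphatase that acts first on CDK1 at the centrosome, had log2 ratios of 0.26, -0.17 and -0.02, and the wider interval held 0 for each.

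The factors that drive the program stood far apart in level. MYBL2 (chromosome 20, 43667019 to 43716496, plus strand), which encodes B-MYB, had 20203 counts in shWBSCR22 and 18448 in shCtrl, or 475 and 411 FPKM, the highest level of the 52 genes. Its ratio was small and well measured, 0.30 with a wider interval of 0.20 to 0.39. FOXM1 (chromosome 12, 2857681 to 2877155, minus strand), the forkhead factor that joins B-MYB at mitotic promoters, had only 87 counts in shWBSCR22 and 218 in shCtrl, 1.16 and 2.75 FPKM. It was called lower with the counting interval, at -1.15 (-1.53 to -0.79), and its wider interval of -2.75 to 0.16 held 0. FOXM1 shares 781 exon bases with ITFG2 on the other strand, which had 71 counts in shWBSCR22 and 119 in shCtrl. MYBL2 message stood at 410 times the FPKM of FOXM1 in shWBSCR22 and at 149 times in shCtrl.

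Of the 5 genes of chromosome structure that were compared, SMC2 was called lower with the counting interval and none with the wider one. The shares of all genes called were 24.1% and 7.17%. MKI67, the proliferation antigen that coats mitotic chromosomes, had 2345 counts in shWBSCR22 and 2361 in shCtrl, or 12.0 and 11.4 FPKM. Its log2 ratio was 0.16, and the wider interval of -0.13 to 0.44 bounds the difference between these libraries to well under the size rule. TOP2A, the topoisomerase that untangles sister chromatids, had 404 counts in shWBSCR22 and 258 in shCtrl, with a ratio of 0.81 (0.02 to 1.60). Of the condensin genes, which compact chromosomes, NCAPG and NCAPH had ratios of 0.07 and 0.02, each on the other side of 0 under total-count scaling. SMC2, a core ATPase of condensin, had 71 counts in shWBSCR22 and 183 in shCtrl (-1.19), and its wider interval of -3.01 to 0.26 held 0. SMC4, the partner ATPase, had 0 counts in shWBSCR22 and 9 in shCtrl, about 1 clump of reads, too few to compare.

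The 4 genes of the chromosomal passenger complex, which corrects faulty attachments and later guides cytokinesis, did not keep to one direction. BIRC5 (chromosome 17, 78214186 to 78225636, plus strand), known as survivin, had 6077 counts in shWBSCR22 and 5075 in shCtrl, or 104 and 82.3 FPKM, with a ratio of 0.43 (0.24 to 0.61). AURKB, the kinase of the complex, had 1905 counts in shWBSCR22 and 2291 in shCtrl, 55.5 and 63.2 FPKM (-0.10, -0.41 to 0.21). CDCA8, which encodes borealin, had 163 counts in shWBSCR22 and 336 in shCtrl (-0.88, -1.99 to 0.11). INCENP (chromosome 11, 62123973 to 62153163, plus strand), the scaffold, had 0 counts in shWBSCR22 and 68 in shCtrl. Against a floor of 3 counts, the number that a count of 0 allows, it was at least 20.2-fold lower, taking each read as independent. Its wider interval reached 0.19 and so held 0. INCENP has the lowest of the 51 ratios with or without this bound, so the bound cannot move their median.

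Of the 7 centromere and kinetochore genes SPC24 was called higher with both intervals, and NDC80 and CENPE lower with the counting interval alone. Among all genes compared, the counting interval called 24.1% in either direction, whereas the wider interval called 7.17%. The Ndc80 complex, which binds microtubule ends, is built from SPC24, SPC25, NUF2 and NDC80. SPC24 (chromosome 19, 11131520 to 11155808, minus strand) had 4374 counts in shWBSCR22 and 2045 in shCtrl, or 101 and 44.5 FPKM. It was 2.40-fold higher, with a log2 ratio of 1.26 (counting interval 1.19 to 1.34, wider interval 1.02 to 1.51). It was the only mitotic gene of at least 30 CPM called in either direction, 1 of 20, or 5.00%, beside 5% of all genes at that level.

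Its direct partner SPC25 had 337 counts in shWBSCR22 and 351 in shCtrl, 12.0 and 11.8 FPKM (0.11, -0.70 to 0.87). NDC80, the microtubule-binding subunit, had 66 counts in shWBSCR22 and 167 in shCtrl, 1.20 and 2.87 FPKM, and was called lower with the counting interval alone (-1.17, wider interval -3.07 to 0.34). NUF2 had 41 counts in shWBSCR22 and 88 in shCtrl, with a ratio of -0.93 (-3.56 to 1.04). The FPKM of SPC24 was thus 8.42 times that of SPC25 in shWBSCR22 and 3.78 times in shCtrl, and 126 times that of NUF2 in shWBSCR22 and 27.5 times in shCtrl. Of the other kinetochore genes, CENPE, the motor that moves chromosomes to the spindle equator, had 11 counts in shWBSCR22 and 59 in shCtrl (-2.21, -9.40 to 0.98), less than 1 clump of reads in shWBSCR22. CENPF, a large outer-kinetochore protein, had 154 and 312 counts in shWBSCR22 and shCtrl (-0.85, -2.01 to 0.17). CENPA, the histone variant that marks centromeres, had a ratio of -0.07.

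Of the 5 spindle checkpoint genes 2 were called higher and 0 lower with the counting interval, beside 12.2% and 11.9% of all genes. With the wider interval TTK alone was called, beside 4.19% of all genes called higher and 2.98% lower. TTK (chromosome 6, 80003887 to 80042527, plus strand), the kinase at the head of the checkpoint, had 101 counts in shWBSCR22 and 22 in shCtrl, or 1.44 and 0.297 FPKM. The log2 ratio was 2.34 (counting interval 1.69 to 3.10, wider interval 0.16 to 5.09). MAD2L1, whose product MAD2 binds CDC20, had 179 counts in shWBSCR22 and 87 in shCtrl, 2.03 and 0.936 FPKM (1.20, -0.11 to 2.54). BUB1B, the inhibitor known as BUBR1, had 86 and 73 counts in shWBSCR22 and shCtrl (0.40, -1.40 to 2.07). BUB1, a kinase that recruits the others, had 157 and 240 (-0.44, -1.62 to 0.61). BUB3, the adaptor that brings the BUB kinases to kinetochores and the most abundant of these genes, had 1003 and 1258 (-0.16, -0.60 to 0.26). The called pair are thus low in level, and TTK rests on about 7 clumps of reads in shWBSCR22 and about 3 in shCtrl.

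Among spindle motors and microtubule proteins NUSAP1, which bundles spindle microtubules, had 1723 counts in shWBSCR22 and 1332 in shCtrl, or 39.1 and 28.6 FPKM. Its ratio of 0.54 (0.18 to 0.89) was the highest of the 8 genes. TPX2, the spindle assembly factor that activates Aurora A, was the most abundant, with 78.7 FPKM in shWBSCR22 and 78.1 in shCtrl and a ratio of 0.10 (-0.11 to 0.30). KIF11, the motor that pushes the spindle poles apart, had a ratio of -0.09 (-0.50 to 0.31), and KIF2C, which takes microtubule ends apart at kinetochores, one of 0.23 (-0.38 to 0.82). The minus-end motor KIFC1 had 44 counts in shWBSCR22 and 143 in shCtrl and was called lower with the counting interval alone (-1.52, wider interval -3.98 to 0.26). KIF4A, a chromosome-arm motor, had -0.78, HMMR, a spindle-pole protein, 0.38, and CKAP5, a microtubule polymerase, 0.10, and the wider interval held 0 for each. PLK4, the kinase that starts centriole duplication, had 63 counts in shWBSCR22 and 53 in shCtrl (0.41, -1.77 to 2.40).

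None of the 5 genes of anaphase was called with either interval, beside 24.1% and 7.17% of all genes. The wider interval lay below 0 for UBE2C and CDC20 and held 0 for UBE2S, PTTG1 and ESPL1. It lay below 0 at any size for 8.2% of all genes, and for 17.9% of those of at least 30 CPM. UBE2S and UBE2C are the ubiquitin-conjugating enzymes of the anaphase promoting complex: UBE2C places the first ubiquitin and UBE2S lengthens the chain. UBE2C (chromosome 20, 45812576 to 45816957, plus strand) had 592 counts in shWBSCR22 and 1162 in shCtrl, or 30.1 and 55.9 FPKM. With a ratio of -0.81 (-1.35 to -0.29) it was the lowest of the mitotic genes of at least 30 CPM. UBE2S had 9985 counts in shWBSCR22 and 10645 in shCtrl, 234 and 236 FPKM, and a ratio of 0.07 (-0.06 to 0.21) that turned to -0.01 under total-count scaling. The per-length level of UBE2S was 7.78 times that of UBE2C in shWBSCR22 and 4.23 times in shCtrl.

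CDC20 (chromosome 1, 43358955 to 43363203, plus strand), the activator of the complex in mitosis, had 4435 counts in shWBSCR22 and 6217 in shCtrl, or 142 and 189 FPKM (-0.32, -0.52 to -0.13). PTTG1, which encodes securin, had 2218 counts in shWBSCR22 and 2344 in shCtrl and 72.0 FPKM in both, with a ratio of 0.09 (-0.21 to 0.38). ESPL1, the separase that securin holds back, had 331 counts in shWBSCR22 and 394 in shCtrl (-0.09, -0.88 to 0.67). The 5 genes of the central spindle and cytokinesis were all under 3 FPKM in both libraries, and none was called, beside 32.1% of all genes of 1 to 30 CPM. KIF23, a motor of the central spindle, had 284 counts in shWBSCR22 and 200 in shCtrl (0.67, -0.27 to 1.59), and ANLN, the anillin scaffold of the cleavage furrow, 99 and 162 (-0.54, -2.07 to 0.78). PRC1, the bundler of central spindle microtubules, KIF20A, a late mitotic motor, and ECT2, the exchange factor that activates RhoA, had ratios between -0.21 and 0.18.

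The size of a ratio went with the level of the gene. Among the 51 genes the Spearman correlation of the absolute log2 ratio with mean CPM was -0.42, against -0.44 over all genes compared; the points share their libraries and depth. The SD of the ratios across genes was 3.16 for the 6 mitotic genes of 1 to 5 CPM, 0.74 for 25 genes of 5 to 30 CPM, 0.55 for 8 of 30 to 100 CPM and 0.47 for 12 above. Over all genes the same SDs were 2.34, 0.84, 0.54 and 0.44. The SD of 3.16 rests on INCENP, whose ratio is set by the 0.5 added to a count of 0: without genes at 0 in either library the SD from 1 to 5 CPM was 1.68 for 5 mitotic genes and 1.41 for all 3774 such genes. All 6 genes called lower, and TTK and MAD2L1, had a mean under 30 CPM, where 8 of 31 mitotic genes were called, 25.8%, beside 32.1% of all genes at that level. Of the 20 genes above it 15 had a ratio within 0.5 of 0, and 17 of the 52 genes had fewer than 10 clumps of reads in at least 1 library.

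**Figure D3:**
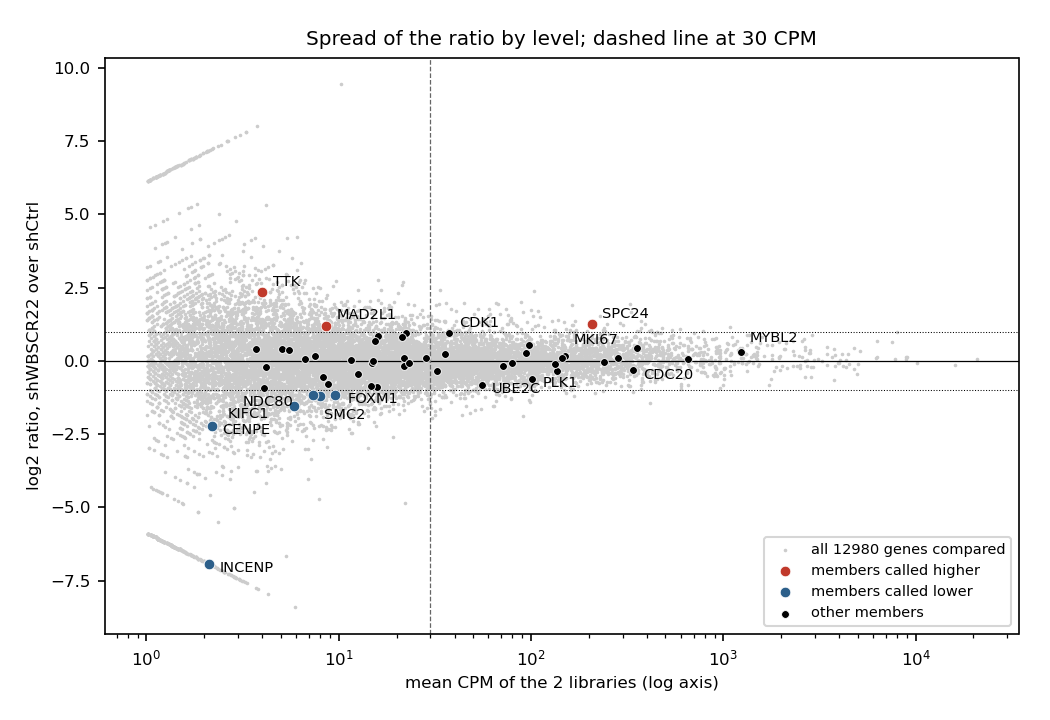
Log2 ratio of shWBSCR22 over shCtrl against mean CPM (log axis) for all 12980 genes compared (grey) and the 51 mitotic genes (black, red where called higher and blue where called lower with the counting interval). To the right of the dashed line at 30 CPM only SPC24 is called, and the rest lie between -0.81 and 0.95.

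Mitotic promoters are known for CCAAT boxes, bound by NF-Y, and for the cell cycle genes homology region (CHR), bound by the DREAM complex and by B-MYB with its partners. RefSeq promoters (GRCh38.p14), from 250 bases before to 50 bases after the start, were matched for 45 of the 52 genes; AURKA, FOXM1, BIRC5, BUB3, TTK, TPX2 and UBE2C had no entry used here. The CCAAT box was searched as CCAAT and the CHR as TTTGAA and as TTCGAA, each on both strands. A CCAAT box stood in 32 of 45 promoters, 71.1%, against 34.6% of all 35116 RefSeq promoters of the same length. A CHR stood in 31, 68.9%, against 16.4%, and both motifs in 23, 51.1%, against 6.38%. Of the 9166 promoters of genes compared here 36.6% held a CCAAT box, 10.6% a CHR and 4.6% both. A match describes these letters and is neither a site nor a cause.

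The 6 promoters printed here hold both motifs and belong to the genes of highest mean FPKM among those named by rule. The ratios of these genes differ in direction, which is not why they were printed. Capitals mark the CCAAT box and the CHR on either strand, and only the 250 bases before the start are printed, 5′ to 3′. The start is that of the RefSeq promoter, which for CDC20 and PLK1 lies inside the gene bounds given above.
CDC20, chr1:43358731-43358980, plus strand: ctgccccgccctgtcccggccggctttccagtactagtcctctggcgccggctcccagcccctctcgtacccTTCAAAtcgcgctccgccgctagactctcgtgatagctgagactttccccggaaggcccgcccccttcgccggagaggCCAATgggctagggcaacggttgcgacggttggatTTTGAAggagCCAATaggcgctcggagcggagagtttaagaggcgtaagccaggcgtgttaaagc
NUSAP1, chr15:41332631-41332880, plus strand: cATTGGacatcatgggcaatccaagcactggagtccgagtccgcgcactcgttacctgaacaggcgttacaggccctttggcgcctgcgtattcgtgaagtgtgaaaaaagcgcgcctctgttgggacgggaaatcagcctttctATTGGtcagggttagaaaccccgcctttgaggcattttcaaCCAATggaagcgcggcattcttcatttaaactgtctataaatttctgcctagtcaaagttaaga
PLK1, chr16:23678639-23678888, plus strand: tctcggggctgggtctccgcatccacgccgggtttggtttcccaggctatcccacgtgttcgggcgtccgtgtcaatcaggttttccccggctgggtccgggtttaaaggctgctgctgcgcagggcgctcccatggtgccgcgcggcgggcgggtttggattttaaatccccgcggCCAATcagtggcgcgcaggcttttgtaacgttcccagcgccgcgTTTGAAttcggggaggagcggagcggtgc
MKI67, chr10:128126424-128126673, minus strand: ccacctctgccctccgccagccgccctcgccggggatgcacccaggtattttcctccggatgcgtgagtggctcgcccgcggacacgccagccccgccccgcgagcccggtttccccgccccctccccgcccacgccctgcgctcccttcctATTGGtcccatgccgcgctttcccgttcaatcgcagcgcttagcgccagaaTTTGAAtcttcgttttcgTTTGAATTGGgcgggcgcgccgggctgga
CDK1, chr10:60778081-60778330, plus strand: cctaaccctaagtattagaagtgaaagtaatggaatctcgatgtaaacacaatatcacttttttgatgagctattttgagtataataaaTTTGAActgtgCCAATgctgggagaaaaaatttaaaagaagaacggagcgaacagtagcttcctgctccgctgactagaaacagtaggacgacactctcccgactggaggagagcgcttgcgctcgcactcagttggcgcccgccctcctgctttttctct
TOP2A, chr17:40417897-40418146, minus strand: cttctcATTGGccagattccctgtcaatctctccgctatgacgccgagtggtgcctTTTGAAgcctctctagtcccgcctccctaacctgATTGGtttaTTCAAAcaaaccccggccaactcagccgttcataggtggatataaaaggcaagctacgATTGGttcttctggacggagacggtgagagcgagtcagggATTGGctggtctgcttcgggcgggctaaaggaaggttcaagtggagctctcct

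In PLK1 the CCAAT box began 73 bases and the CHR 29 bases before the start, while in CDK1 they began 150 and 161 bases before it. In MKI67 a CHR and a CCAAT box share 1 base, and in NUSAP1 the single CHR lies after the start and is not printed. Of these genes the wider interval of the ratio lay below 0 for CDC20 and PLK1, above 0 for NUSAP1, CDK1 and TOP2A, and held 0 for MKI67. For TOP2A it holds 0 under total-count scaling. Each motif class held ratios on both sides of 0. The 23 genes with both motifs had a median log2 ratio of -0.07, 11 above and 12 below 0. The 9 with a CCAAT box alone had 0.07, the 7 compared with a CHR alone -0.54 and the 5 with neither motif 0.23. The classes also differed in level. The median was 3.34 FPKM in shWBSCR22 and 2.81 in shCtrl with both motifs, and 45.5 and 44.5 with a CCAAT box alone. It was 0.997 FPKM in shWBSCR22 and 1.49 in shCtrl with a CHR alone, the class of lowest level, and 10.2 and 9.28 with neither.

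**Figure D4:**
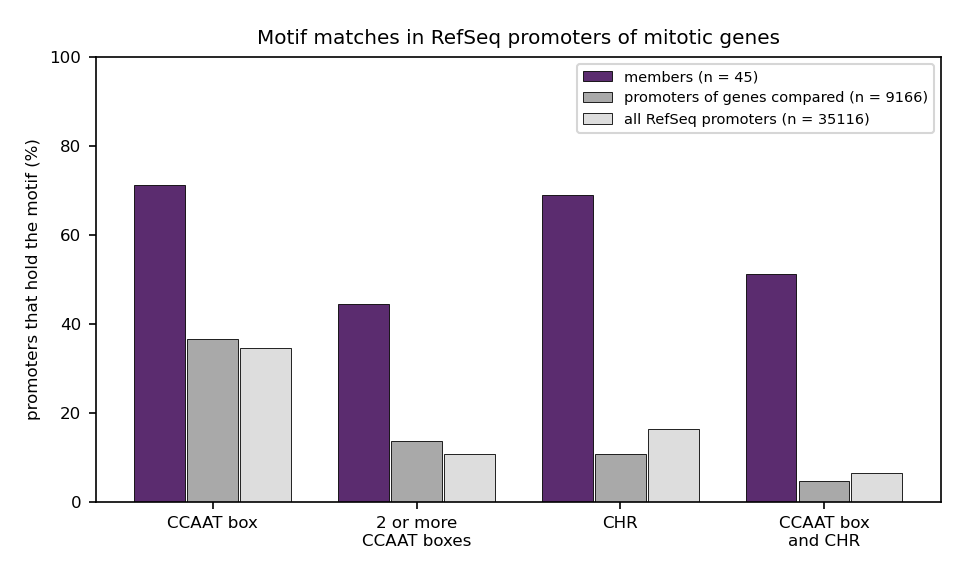
Share of RefSeq promoters (%) that hold a CCAAT box, 2 or more CCAAT boxes, a CHR, or a CCAAT box and a CHR, for 45 mitotic genes, 9166 genes compared in these libraries and all 35116 promoters. Both motifs together are found in 51.1%, 4.6% and 6.38% of them.

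The longest GENCODE transcripts of the 51 genes had a median GC content of 44.3%, against 49.6% over all genes compared, and ranged from 35.3% to 60.5%, the highest being that of MYBL2. Their exons had a median length of 3936 bases against 4687. Shorter genes had the higher FPKM, with a Spearman correlation of FPKM and exon length of -0.58 across the 51 genes, against -0.42 over all genes. Because FPKM divides the count by nearly this length, a negative correlation is in part built in. The log2 ratio had a correlation of -0.07 with length and of -0.13 with GC content, against -0.09 and 0.07 over all genes. Exons of 17 of the 52 genes share bases with a gene on the other strand, and 12 have a named near-copy. Where both have counts listed, reads may be assigned to either, but the UBE2C pseudogenes, among other copies, have none listed. UBE2SP1, a processed copy of UBE2S, had 127 counts in shWBSCR22 and 59 in shCtrl, small beside UBE2S itself.

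A further 130 genes of the mitotic machinery, listed by complex, showed the same picture. Of 126 compared, 6 were called higher and 9 lower with the counting interval, 11.9%, and 2 higher and 1 lower with the wider one, 2.38%, both under the shares of all genes given above. Their median log2 ratio was -0.0049, beside -0.016 over all genes, and they took 0.571% of the counts in shWBSCR22 and 0.566% in shCtrl. None of the 32 genes with at least 30 CPM was called, beside 5% of all genes at that level. LIN52, a subunit of the MuvB core that carries B-MYB to CHR elements, had 173 counts in shWBSCR22 and 44 in shCtrl (2.13, 0.56 to 3.92). KIF20B, a kinesin of late cytokinesis, had 150 counts in shWBSCR22 and 52 in shCtrl (1.69, 0.12 to 3.38). CDC26, a small subunit of the anaphase promoting complex, had 14 counts in shWBSCR22 and 135 in shCtrl (-3.06, -8.81 to -0.36), less than 1 clump of reads in shWBSCR22.

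Of the well-measured genes of this list, TACC3, which strengthens spindle fibres with clathrin and CKAP5, had 5278 counts in shWBSCR22 and 3395 in shCtrl, with a ratio of 0.80 (0.59 to 1.01). CDCA5, the cohesin protector sororin, had 743 and 491 counts in shWBSCR22 and shCtrl (0.76, 0.19 to 1.33), and ANAPC16, another subunit of the anaphase complex, 2907 and 2040 (0.68, 0.40 to 0.95). CHMP4B, which cuts the last bridge between daughter cells, had 941 counts in shWBSCR22 and 1658 in shCtrl (-0.65, -1.08 to -0.24), whereas RHOA, the GTPase of the contractile ring, had 5576 and 4823 (0.38, 0.18 to 0.56). The wider interval held 0 for the remaining genes at the ends of their classes at this level. These were CENPM (0.25) and CENPO (-0.35) of the inner centromere, TRIP13 (-0.46), the ATPase that recycles MAD2, and ANAPC7 (-0.01). With them were the condensin genes NCAPH2 (0.15) and NCAPD2 (-0.29), the kinesins KIF22 (0.21) and KIF18B (-0.13), and the CDK1-binding CKS1B (0.24) and CKS2 (-0.29).

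**Figure D5:**
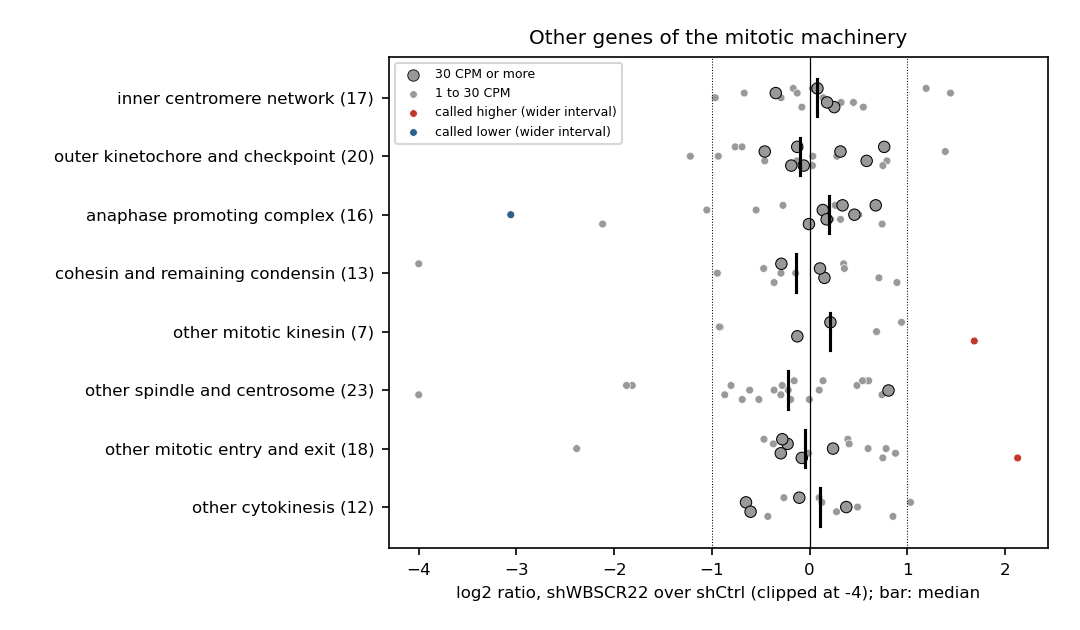
Log2 ratio of shWBSCR22 over shCtrl for 126 further mitotic genes in 8 classes, with the number compared in brackets; large points have at least 30 CPM and bars mark class medians. Class medians lie between -0.22 and 0.21, and LIN52, KIF20B and CDC26 are the 3 genes called with the wider interval.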

How the data were processed

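The authors deposited whole-number counts per gene and FPKM per gene for 1 shWBSCR22 and 1 shCtrl library. Tools named in the submitters' processing notes are HISAT2, StringTie, DESeq, FastQC and bcl2fastq, and the build is GRCh38, with no role, order or version; annotation, counting program and use of strand are not stated there. The authors' FPKM are proportional to count over length and add no separate evidence; for 97.7% of 5478 well-covered genes that length lay within 1% of the exon union of GENCODE release 29.

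Groups came from the treatment label. A filter at a mean of 1 CPM kept 12980 genes, which were scaled by TMM (edgeR 4.0.16, R 4.3.3), with factors of 0.971 in shWBSCR22 and 1.03 in shCtrl. Ratios had 0.5 counts added. Intervals were Clopper-Pearson at 95%. Clump sizes of 15 and 8 reads were the most frequent low counts after averaging over 3 neighbouring counts. No molecular identifiers are stated, and reads may be copies, so intervals and the floor of 3 counts cover counting error only. With 1 library per group there are no residual degrees of freedom and no test. The procedure was run on simulated data with known folds, with reads drawn singly or in clumps of these same sizes. Such data cannot show whether the clump sizes or the intervals fit these libraries. Python 3.11.15 with scipy 1.17.1 was used for the intervals.

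The members, the lists of further mitotic genes and markers and the rule for named genes were chosen with earlier results of these data known. Values were given for every gene called, for the highest and lowest of each role, for the 3 of highest mean FPKM and for MKI67, CDK1, CCNB1, PLK1, AURKA and FOXM1; other members were added after their values were seen. Of the further genes, those called with the wider interval and the highest and lowest of each class at 30 CPM or more were named. Alternatives were total-count, upper-quartile and DESeq2 (1.42.0) scaling, 2 counts added, FPKM with pseudocounts of 0.1 and 1, and other filters.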

Additional observations from a re-analysis of the deposited data

How the results depend on the processing

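No paired analysis was possible because each group held 1 library, and leaving out a library was likewise impossible. The median log2 ratio of the members ranged from -0.084 with total-count scaling to 0.08 at a mean of at least 30 CPM. With total-count scaling BUD23 had -0.80, as with FPKM and a pseudocount of 0.1, and 2 further mitotic genes were called lower with the wider interval under either, beside 3.87% and 3.76% of all genes. FPKM with a pseudocount of 1, which shrinks ratios of low genes by construction, left 1 member called higher and 0 lower with the counting interval and 1 higher with the wider one; of the further genes 1 was called in each direction with either interval. Of all genes 4.01% were then higher and 3.51% lower with the counting interval, and 2.27% and 2.07% with the wider one. A mean of at least 5 CPM left 1 member called higher with the wider interval, and of the further genes the counting interval called 3 higher and 1 lower and the wider one 0 lower; the shares of all genes were 6.57% higher and 6.46% lower by the counting interval and 4.73% and 3.7% by the wider. At 30 CPM 1 member was higher and 0 lower with the counting interval and 1 higher with the wider one, and 0 further genes were called, beside 3.23% of all genes higher and 1.76% lower with either interval; fewer genes are tested there. The wider interval in place of the counting interval gave 0 members lower, and 2 further genes higher and 1 lower, beside 4.19% and 2.98% of all genes. Scaling moved 4 of 51 members across 0, and total counts put 22 above and 29 below. No called gene named among the members changed sign in any alternative. These alternatives shift or shrink a ratio too little to turn one of at least 1 in size, so this is no support. The widest ranges among called members were those of INCENP, from -7.02 to -0.96, and CENPE, from -2.29 to -0.37. FOXM1 ranged from -1.24 to -0.80, TTK from 0.91 to 2.35 and SPC24 from 1.16 to 1.28. Depth limits the low genes: 17 of 52 members rest on fewer than 10 clumps of reads in a library.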
